A study of Mus musculus with 6 samples.

Results

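Amino acids cross membranes through carrier proteins of the solute carrier (SLC) superfamily, and 7 of its families were followed here in leukaemic progenitor cells with and without Prmt6, a protein arginine methyltransferase. The members were all genes of the deposited table whose symbol names family Slc1, Slc3, Slc6, Slc7, Slc36, Slc38 or Slc43, which gave 63 genes of 30037. The rule used symbols and no measured value, so it also took in Slc7a6os, a gene named for its place on the opposite strand beside Slc7a6 that is not a carrier, and carriers of other solutes such as Slc43a3. Poly(A) RNA had been sequenced from L-GMP cells, leukaemia cells that resemble granulocyte-macrophage progenitors, taken by sorting from the marrow of leukaemic mice (acute myeloid leukaemia) that were 8 to 10 weeks old. The 3 wild-type (WT) libraries came from leukaemia cells with intact Prmt6 and the 3 knockout libraries from Prmt6-/- leukaemia cells. All 6 libraries share the leukaemia and the sort. The genetic event that drives the leukaemia, the strain, and whether each library came from its own animal are not stated in the labels, and the p-values therefore describe spread between libraries that may be technical.

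Carriers of these families work in a few arrangements. Light chains of the SLC7 family are joined by a disulphide bridge to a heavy chain, SLC3A2 (4F2hc, CD98) or SLC3A1, which brings them to the cell surface. The light chain SLC7A5 (LAT1) then exchanges intracellular amino acids for leucine and other large neutral amino acids, and SLC7A11 (xCT) exchanges glutamate for cystine, a source of cysteine for glutathione. SLC1A5 (ASCT2) and the SLC38 carriers move glutamine and other small neutral amino acids, and several SLC36 and SLC38 proteins sit on lysosomes, where amino acids are sensed by the kinase complex mTORC1. Slc7a5, Slc3a2 and Slc1a5 are the carriers best known from growing cells, and all 3 had means above the median level of tested genes (7.73).

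Values are the authors' log2 expression, normalized between libraries, and depth is unknown because no counts are given. Fold changes of genes with low levels are understated on this scale. The targeted gene Prmt6 fell in the libraries labelled knockout, by 2.16 on the log2 scale (SE 0.0977, limma adjusted p = 3.57e-06). The authors' deposited table gives it a log2 fold change of -7.66 (adjusted p = 3.05e-27). Exons of C130013H08Rik overlap Prmt6 on the other strand, and the strand setting of the counting is not given. Of the genes that mark the sorted fraction, Kit, Cd34 and Fcgr3 averaged 10.14, 10.44 and 13.28 in the wild type and were not called by limma, Ly6a and Il7r stood at 2.62 and 3.93, and Fcgr2b was lower in the knockout by 0.88 (limma adjusted p = 0.000507), whose part in the results below was not tested. Kit differed by -0.29 (limma adjusted p = 0.0961), and the authors' deposited table does call it lower, at a log2 fold change of -0.35 (adjusted p = 0.0481), and without wild-type library 2 limma called it too (-0.41, adjusted p = 0.0266, against up to 0.289 in the other alternatives). Of 15 genes marking T, B, erythroid, megakaryocytic, stromal, endothelial, NK and neutrophil cells, 10 were tested. Limma called 0 of these, against 33.0% of all tested genes, and 1 had an unadjusted p under 0.05. The authors' deposited table calls 0 of them, against 31.0%. Their highest wild-type means were 8.88 for S100a8 and 5.43 for Itga2b, and Cd3e, Ncr1 and Cdh5 were below 0 in every library. Adgre1, planned as the macrophage marker, was not among the 15, so macrophages were not checked. In bulk samples fewer cells of a type and less RNA per cell cannot be told apart.

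The following 3 stretches of promoter are shown for called members, of which Slc7a11 and Slc36a1 hold a searched motif there and Slc43a2 does not. RefSeq start sites on GRCm38.p6 gave 66 windows of 250 bases upstream for 45 of the 63 members. Among others, the markers Slc7a5 and Slc1a5 and the called members Slc43a3, Slc38a1, Slc36a2, Slc7a2 and Slc7a4 had no window and were not searched. Each sequence is the last 100 bases before the start, on the strand of the gene and read 5′ to 3′, and capitals mark motif matches. Slc7a11 lies at chr3:50443614-50443713 on the minus strand, Slc36a1 at chr11:55204240-55204339 and Slc43a2 at chr11:75531594-75531693, both on the plus strand.
Slc7a11: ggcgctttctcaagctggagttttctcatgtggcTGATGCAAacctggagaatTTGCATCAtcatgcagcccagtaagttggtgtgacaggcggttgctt
Slc36a1: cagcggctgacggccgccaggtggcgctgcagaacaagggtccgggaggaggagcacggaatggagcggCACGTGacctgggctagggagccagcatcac
Slc43a2: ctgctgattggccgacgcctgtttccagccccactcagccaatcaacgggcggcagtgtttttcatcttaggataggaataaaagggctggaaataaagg
The motifs searched on both strands were TGATGNAA, the composite site bound by ATF4 in genes that respond to amino acid shortage, CACGTG, the E-box bound by MYC, TFEB and relatives, and TGACNNNGC, the core of the antioxidant response element bound by NRF2. Slc7a11 holds TGATGNAA from -66 to -59 and its reverse complement from -47 to -40, counted back from the start site. Over the 45 members with a window TGATGNAA was in 3 windows of 66 (4.55%), of Slc7a11 and Slc7a7, against 3.45% of all 32851 windows. CACGTG was in 9 member windows (13.6%) against 6.02% of all windows, and TGACNNNGC in 9 (13.6%) against 10.2%. Slc36a1 holds CACGTG from -31 to -26, and in the window of Slc38a7 the same letters lie from -34 to -29. Of this pair Slc36a1 was called higher and Slc38a7 lower in the knockout. The remaining members with CACGTG, Slc1a6, Slc1a7, Slc38a5, Slc43a1, Slc6a16, Slc6a3 and Slc7a14, were not tested or not called. Among members with TGACNNNGC, Slc6a13 (match from -82 to -74) was called lower. The remaining members with it, Slc38a2, Slc43a1, Slc6a11, Slc6a16, Slc6a9, Slc7a1 and Slc7a6, were not tested or not called. No motif searched was found in the 2 windows of Slc43a2. No match overlapped a match of another motif. A match describes letters only, and members with several starts have several windows.

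Of the 63 members, 46 passed the filter on low values (at least 1 on the log2 scale in at least 3 libraries). The other 17 averaged between -1.49 and 0.97, and 3 of them (Slc1a6, Slc6a14 and Slc6a15) are listed at 0 in every library. Of the tested members 9 were higher and 8 lower in the knockout at a limma adjusted p under 0.05, which is 37.0% of them, and the background over all 15454 tested genes was 33.0%, with 15.0% higher and 18.0% lower. The share called was close to the background. The number higher fell to 5 with wild-type library 1 or knockout library 3 left out, 4 with wild-type library 2, 3 with wild-type library 3 and 2 with knockout library 1 or 2 left out, and the number lower to 5 with wild-type library 3 or any knockout library left out. The 29 members that were not called comprised 9 at or above the median level, each described below by its difference, and 20 under it, with means from 1.11 to 6.88 and differences from -0.38 to 0.14. The median difference was 0.01 for the members and 0.01 for all tested genes. Groups did not overlap for 19 tested members, against 47.4% of all tested genes. The authors' deposited table calls 14 of the tested members at an adjusted p under 0.05, against 31.0% of all tested genes, and 13 of these are among the 17.

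**Figure D1:**
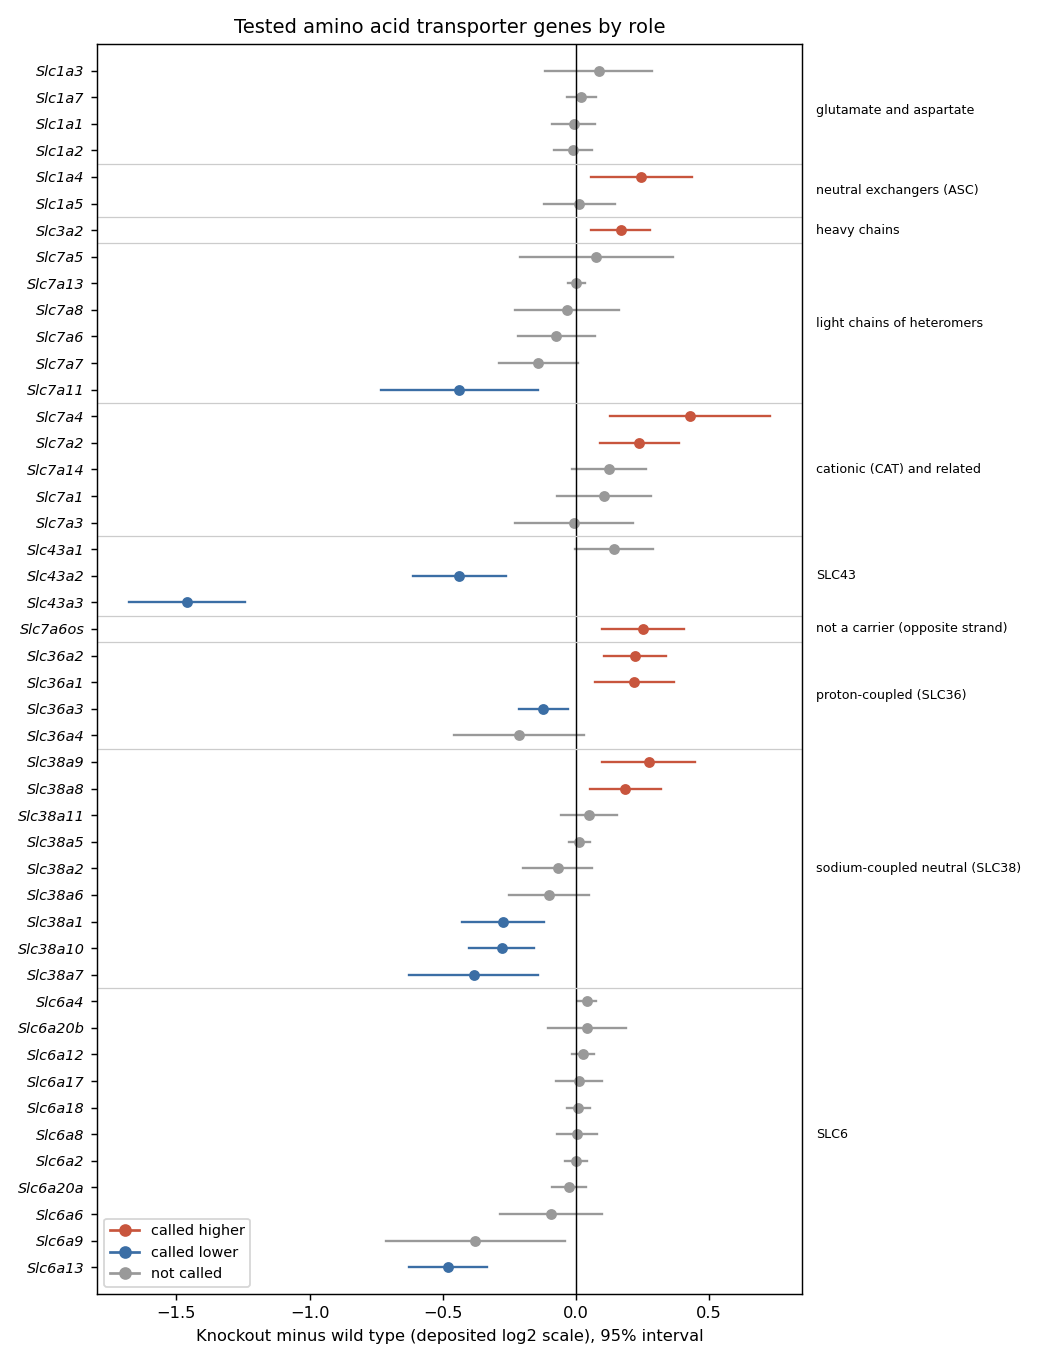
Difference of each of the 46 tested members (knockout minus wild type, deposited log2 scale, points) with limma's 95% interval (lines), grouped by role. Slc43a3 stands alone at -1.46, and the other members lie between -0.48 and 0.43.

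Slc43a3 had the largest difference of the tested members on the deposited log2 scale. The authors' deposited table gives larger log2 fold changes for the low genes Slc38a7 and Slc7a4, and for Slc6a4, which it does not call (2.02, adjusted p = 0.271). Slc43a3 encodes a facilitative transporter of purine nucleobases rather than of amino acids, although its family relatives Slc43a1 (LAT3) and Slc43a2 (LAT4) carry large neutral amino acids. On the log2 scale it read 11.91, 12.02 and 11.98 in the wild-type libraries against 10.33, 10.46 and 10.74 in the knockout libraries. The groups were more than a full log2 unit apart, and the spread in the knockout (SD 0.21, n = 3) was wider than in the wild type (SD 0.05). The difference was -1.46 (SE 0.0963, limma adjusted p = 2.25e-05), and 69 of the 15454 tested genes were lower by more. It lies on chromosome 2 at 84936579 to 84958509 (GRCm38, protein-coding). The authors' deposited table gives it a log2 fold change of -1.63 (adjusted p = 5.16e-47).

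Slc43a2, the leucine and phenylalanine uniporter LAT4 (chromosome 11, 75531694 to 75577575), fell as well. Its values were 9.68, 9.66 and 9.48 in the wild-type libraries against 9.07, 9.17 and 9.26 in the knockout libraries. All knockout libraries lay below all wild-type libraries, with a difference of -0.44 (SE 0.0770, limma adjusted p = 0.00248). An exon of Gm45606 overlaps it on the other strand, and no source used here gives the strand setting of the counting. Reads from the bases that the pair shares therefore cannot be told apart, and the length of the overlap was not measured. Slc43a1 (LAT3) stood at 5.77 ± 0.10 in the wild type against 5.91 ± 0.00488 in the knockout (SD, n = 3). Its difference of 0.14 did not pass (95% interval -0.00328 to 0.291, limma adjusted p = 0.125).

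The heavy chain Slc3a2 (chromosome 19, 8706882 to 8723369) was among the most abundant members. On the log2 scale it read 12.62, 12.60 and 12.73 in the wild-type libraries against 12.82, 12.80 and 12.83 in the knockout libraries. The groups did not overlap, and Slc3a2 rose by 0.17 (SE 0.0488, limma adjusted p = 0.0264, exact two-sided permutation p = 0.1, with 0.1 the smallest value possible for groups of 3). The size was 0.27 after quantile normalization. The call ended without wild-type library 1 or 2 or without any knockout library (limma adjusted p 0.0617 to 0.102). The other heavy chain, Slc3a1, was too low to be tested.

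Of 10 light chains 6 were tested and 1 was called, Slc7a11, beside 33.0% of all tested genes. Slc7a5 (LAT1, chromosome 8, 121881150 to 121907694) had values of 8.87, 8.67 and 8.32 in the wild-type libraries against 8.68, 8.81 and 8.59 in the knockout libraries. The groups overlapped, and the wild-type libraries alone spanned more than the difference of 0.08 (95% interval -0.210 to 0.365, limma adjusted p = 0.679, exact two-sided permutation p = 0.8), which was -0.07 without wild-type library 3. Slc7a8 (LAT2) at -0.03 (95% interval -0.230 to 0.162, limma adjusted p = 0.796) and Slc7a6 (y+LAT2, an exchanger of cationic for neutral amino acids) at -0.07 (95% interval -0.218 to 0.072, limma adjusted p = 0.425) were not called. Slc7a8 stood at 0.05 and Slc7a6 at 0.00144 after quantile normalization. Slc7a7 (y+LAT1), with a low mean of 4.85 in the wild type, was not called at -0.14 (limma adjusted p = 0.132), and was called without wild-type library 1 (-0.21, limma adjusted p = 0.0296, against up to 0.369 in the other alternatives). Its exons overlap Oxa1l on the other strand.

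The cystine exchanger Slc7a11 fell. Its values were 9.61, 9.98 and 10.22 in the wild-type libraries against 9.45, 9.55 and 9.51 in the knockout libraries. The knockout libraries lay close together (SD 0.05, n = 3) and below a spread-out wild type (SD 0.31), of which library 1 came nearest to them. The difference was -0.44 (SE 0.130, limma adjusted p = 0.0298). The authors' deposited table lists a log2 fold change of -0.57 (adjusted p = 0.00183). The call ended without wild-type library 2 or 3 or without any knockout library (limma adjusted p 0.0680 to 0.0923) and in limma without trend (0.0648). Slc7a11 spans chromosome 3 from 49892526 to 50443614, and its start carries the pair of TGATGNAA matches printed above.

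**Figure D2:**
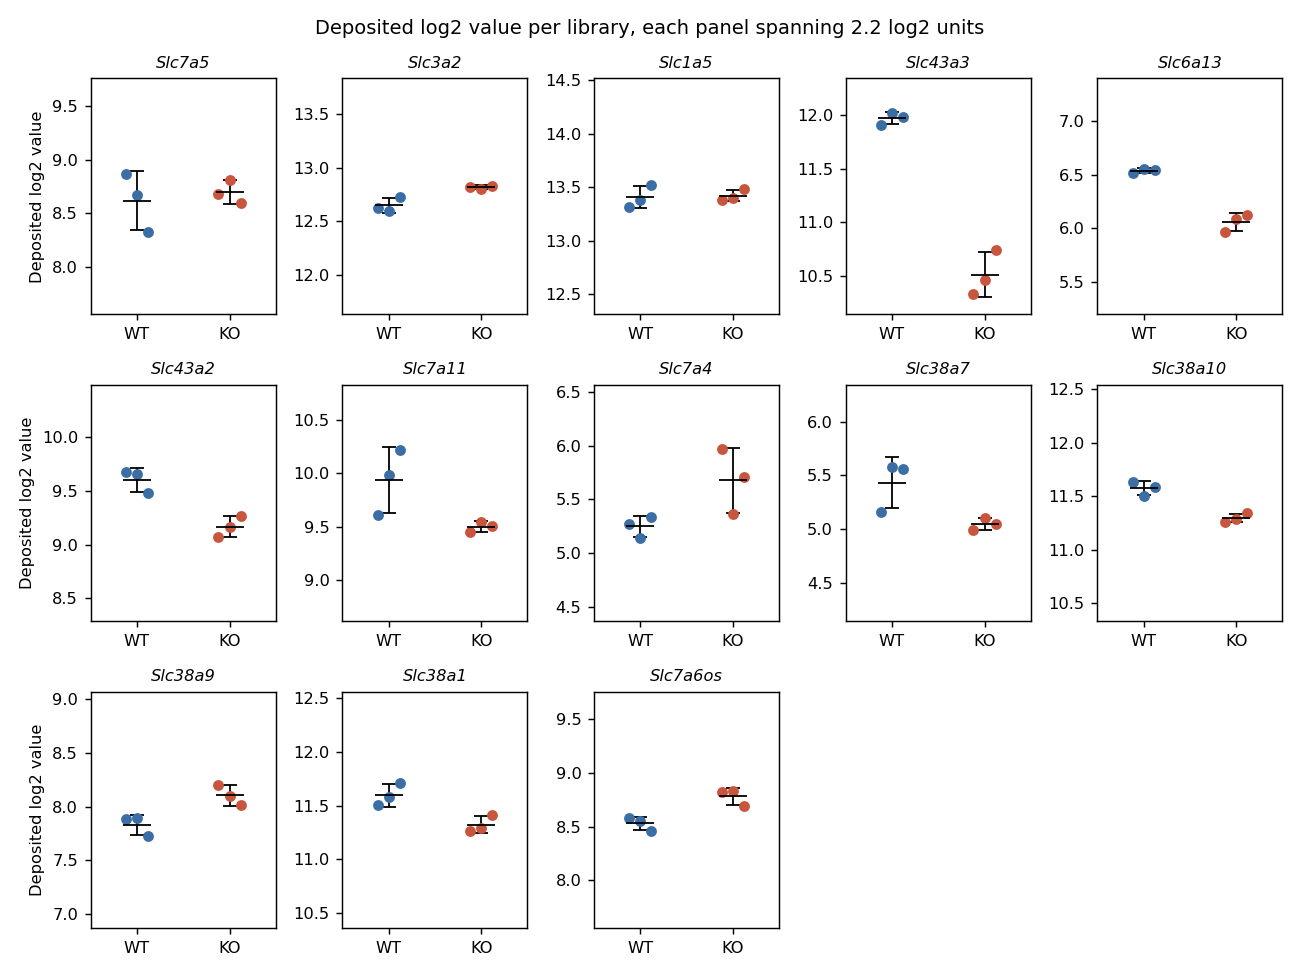
Deposited log2 value in each library (points; WT, wild type; KO, knockout), with mean and SD (n = 3), for the 3 marker genes and the 10 called members with the largest absolute difference. Every panel spans 2.2 log2 units; the groups overlap for Slc7a5 and Slc1a5 and are apart for the other 11.

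Among the neutral exchangers of the SLC1 family, Slc1a5 (ASCT2, chromosome 7, 16781340 to 16798274) had the highest deposited level of all members. On the log2 scale it read 13.32, 13.38 and 13.52 in the wild-type libraries against 13.38, 13.40 and 13.48 in the knockout libraries. The groups overlapped fully, with a difference of 0.01 (95% interval -0.121 to 0.146, limma adjusted p = 0.894, exact two-sided permutation p = 0.8). After quantile normalization the difference was 0.18 and was called as higher (limma adjusted p = 0.0157, against 0.352 to 0.997 in the other alternatives), and without single libraries it lay between -0.03 and 0.07. Slc1a4 (ASCT1, an exchanger of alanine, serine and cysteine) had values of 8.62, 8.75 and 8.89 in the wild-type libraries against 9.11, 8.94 and 8.96 in the knockout libraries, and was called higher by 0.25 at the edge of the threshold (SE 0.0835, limma adjusted p = 0.0499). That call failed under 9 of 13 alternatives. These included leaving out wild-type library 1 or 2 or any knockout library (limma adjusted p 0.0766 to 0.158), no low-value filter (0.0699), limma without trend (0.0614) and the authors' deposited table (0.0518).

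The glutamate and aspartate carriers of SLC1 were measured at low levels. Of 5 genes 4 were tested. Limma called 0, 0 had an unadjusted p under 0.05, and the authors' deposited table calls 0. The background was 33.0% of all tested genes by limma and 31.0% in the authors' deposited table. With 4 genes at a median level of 2.97, where differences are understated, these counts say little about the carriers.

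The SLC38 proteins are sodium-coupled carriers of glutamine, alanine and related amino acids at the surface and on internal membranes. Of 11 genes 9 were tested, of which 2 were higher, 3 lower and 4 not called, beside 15.0% higher and 18.0% lower over all tested genes. Slc38a10 (chromosome 11, 120103960 to 120151346) had values of 11.63, 11.50 and 11.59 in the wild-type libraries against 11.26, 11.28 and 11.34 in the knockout libraries. The groups lay apart, and it fell by 0.28 (SE 0.0540, limma adjusted p = 0.00416), or by 0.17 after quantile normalization, where it was still called (limma adjusted p = 0.0362). An exon of Gm11769 overlaps it on the other strand.

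Slc38a1 (SNAT1, a glutamine importer; chromosome 15, 96571418 to 96642913) had values of 11.50, 11.58 and 11.71 in the wild-type libraries against 11.26, 11.30 and 11.41 in the knockout libraries. All knockout libraries were lower, by 0.27 on average (SE 0.0677, limma adjusted p = 0.0134). Its call ended without knockout library 2 (limma adjusted p = 0.0534; the range over the alternatives was 0.00154 to 0.0567) and after quantile normalization (0.0567), where the size was 0.17 lower. Slc38a2 (SNAT2), its close relative and a gene induced by amino acid shortage, stood at 11.52 ± 0.07 and 11.45 ± 0.06 (SD, n = 3), a difference of -0.07 that did not pass (95% interval -0.198 to 0.062, limma adjusted p = 0.404). Slc38a6 also missed the threshold at -0.10 (95% interval -0.252 to 0.049, limma adjusted p = 0.284).

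Further SLC38 members act on lysosomes. Slc38a9, the lysosomal arginine sensor of mTORC1 (chromosome 13, 112660751 to 112738749), had values of 7.88, 7.89 and 7.72 in the wild-type libraries against 8.20, 8.10 and 8.01 in the knockout libraries. All knockout libraries were higher, by 0.27 on average (SE 0.0770, limma adjusted p = 0.0235). Its call ended without wild-type library 3, knockout library 1 or knockout library 2 (limma adjusted p 0.0673 to 0.0829). Slc38a7 (SNAT7, a lysosomal glutamine exporter; chromosome 8, 95835920 to 95853539) had values of 5.16, 5.58 and 5.56 in the wild-type libraries against 4.996, 5.11 and 5.05 in the knockout libraries. It fell by 0.38 (SE 0.106, limma adjusted p = 0.0221), with wild-type library 1 close to the knockout. The call ended without wild-type library 2 or 3, knockout library 1 or knockout library 3 (limma adjusted p 0.0583 to 0.0779). At this low level the authors' deposited table gives a log2 fold change of -1.87 (adjusted p = 0.000933).

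The SLC36 carriers are proton-coupled, and SLC36A1 (PAT1) exports small amino acids from lysosomes. Slc36a1 (chromosome 11, 55204350 to 55236330) stood at 7.72 ± 0.06 in the wild type against 7.94 ± 0.05 in the knockout (SD, n = 3). It rose by 0.22 (SE 0.0648, limma adjusted p = 0.0284), a call that ended without wild-type library 2 or 3 or knockout library 1 or 2 (limma adjusted p 0.0629 to 0.0904) and in the authors' deposited table (0.0663). Slc36a2 (PAT2, chromosome 11, 55158470 to 55185077) rose by 0.22 as well, from 5.18 ± 0.04 to 5.40 ± 0.01 (SD, n = 3; limma adjusted p = 0.00975), for which the authors' deposited table lists a log2 fold change of 1.021. Slc36a3, the lowest of the family, was called lower by 0.12 (3.77 ± 0.06 against 3.65 ± 0.03; limma adjusted p = 0.0458). That call held in 2 of 12 alternatives, ended without each library in turn (limma adjusted p 0.0528 to 0.141) and is not made in the authors' deposited table (0.0869). Slc36a4, a high-affinity carrier of proline and tryptophan, was not called at -0.21 (95% interval -0.458 to 0.030, limma adjusted p = 0.165), but was called without wild-type library 2 (-0.32, limma adjusted p = 0.0486, against up to 0.453 in the other alternatives) and stood at -0.09 without wild-type library 1.

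Slc38a8, a glutamine carrier known from the retina, was measured at a low level and was called higher by 0.19 (4.80 ± 0.09 against 4.99 ± 0.05, SD, n = 3; limma adjusted p = 0.0384). The call held in 4 of 12 alternatives and ended without wild-type library 2 or 3 or knockout library 1 or 2 (limma adjusted p 0.102 to 0.123).

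The cationic amino acid carriers of SLC7 import arginine, lysine and ornithine. Slc7a1 (CAT1), the most abundant of them, stood at 10.07 ± 0.07 and 10.17 ± 0.14 (SD, n = 3) and was not called at 0.11 (95% interval -0.070 to 0.284, limma adjusted p = 0.337). Slc7a2 (CAT2, chromosome 8, 40862396 to 40922308) rose by 0.24, from 6.53 ± 0.06 to 6.77 ± 0.05 (SD, n = 3; SE 0.0648, limma adjusted p = 0.0202), and its call ended without wild-type library 1 or 3 or knockout library 2 or 3 (limma adjusted p 0.0516 to 0.0679). An exon of Gm26584 overlaps it on the other strand. Slc7a4, a relative with no transport activity settled for it, had values of 5.28, 5.14 and 5.34 in the wild-type libraries against 5.97, 5.37 and 5.71 in the knockout libraries. Knockout library 2 lay just above the wild type and library 1 well above it. Slc7a4 rose by 0.43 (SE 0.133, limma adjusted p = 0.0348), or by 0.29 without knockout library 1, and its call ended without any wild-type library, without knockout library 1 or 3 (limma adjusted p 0.0510 to 0.111), in limma without trend (0.0737) and after quantile normalization (0.0530). The authors' deposited table lists 1.85 for Slc7a4 as log2 fold change (adjusted p = 0.00169).

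Slc7a6os, the member that is not a carrier, rose by 0.25. Its values were 8.58, 8.55 and 8.46 in the wild-type libraries against 8.82, 8.83 and 8.69 in the knockout libraries, without overlap (SE 0.0677, limma adjusted p = 0.0193). The call ended without wild-type library 3 or knockout library 1 or 2 (limma adjusted p 0.0571 to 0.0756). Its exons do not overlap those of Slc7a6 in the GENCODE annotation.

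The SLC6 family holds sodium- and chloride-coupled carriers of neurotransmitters, osmolytes and amino acids, and most of its members were at or near the floor of the scale. Of 20 genes 11 were tested, and 1 was called, as lower, beside 33.0% called and 18.0% lower over all tested genes. Slc6a13 (GAT2, a carrier of GABA and taurine; chromosome 6, 121300227 to 121337733) had values of 6.52, 6.55 and 6.55 in the wild-type libraries against 5.96, 6.09 and 6.12 in the knockout libraries. The wild-type libraries nearly coincided and all knockout libraries lay below them. It fell by 0.48 (SE 0.0648, limma adjusted p = 0.000597), and the authors' deposited table gives a log2 fold change of -1.34 (adjusted p = 9.07e-06). Slc6a6, the taurine carrier and the most abundant member of the family, was not called at -0.09 (95% interval -0.285 to 0.096, limma adjusted p = 0.434). Slc6a9, the glycine carrier GlyT1, had values of 6.96, 6.83 and 7.41 in the wild-type libraries against 6.61, 6.57 and 6.90 in the knockout libraries. It differed by -0.38 with overlapping groups and was not called (95% interval -0.714 to -0.042, limma adjusted p = 0.0822), whereas the authors' deposited table calls it, with a log2 fold change of -0.86 (adjusted p = 0.0307). It was also called without wild-type library 2 (limma adjusted p = 0.0436) and with a replicate block (limma adjusted p = 0.00849). In the alternatives without a call the limma adjusted p went up to 0.223, and the difference was -0.21 without wild-type library 3. An exon of Ccdc24 overlaps Slc6a9 on the other strand.

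Levels of different carriers can be set roughly side by side once they are divided by transcript length. For this, deposited values were returned to a linear scale and divided by the length of the longest GENCODE transcript, for the 29 members with a mean of at least 5. The transformation behind the deposited values is not named, low genes are pulled together, and the longest transcript need not be the one expressed. Orders and shares of such levels are therefore approximate. In the wild type Slc1a5 came first at 11.94 ± 0.10 (log2 level per kilobase, SD, n = 3), followed by Slc3a2 at 11.15 ± 0.07, Slc43a3 at 10.60 ± 0.05, Slc38a10 at 9.38 ± 0.07 and Slc38a2 at 9.30 ± 0.07. The 3 highest differed from each other by more than their spread, while Slc38a10 and Slc38a2 were within about their SD of each other. Among light chains Slc7a8 (8.06 ± 0.11) and Slc7a6 (7.92 ± 0.05) were above Slc7a5 (6.81 ± 0.27) and Slc7a11 (6.73 ± 0.31), and the last pair could not be ordered within their spread. In the knockout Slc43a3 stood at 9.14 ± 0.21, Slc38a2 at 9.23 ± 0.06 and Slc38a10 at 9.10 ± 0.04. Slc43a3 could not be ordered against either within its spread. The knockout libraries of Slc38a2 (lowest 9.157) lay just above those of Slc38a10 (highest 9.147).

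**Figure D3:**
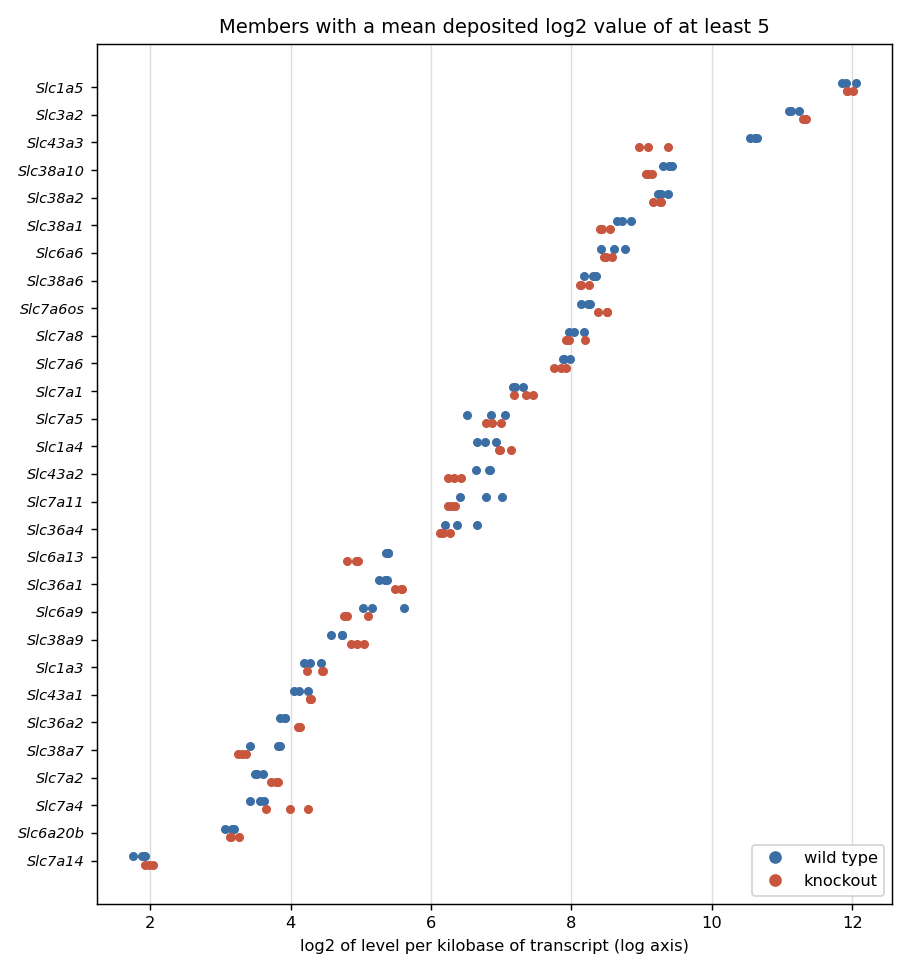
Log2 level per kilobase of transcript in each library (blue, wild type; red, knockout) for the 29 members with a mean of at least 5, ordered by the wild type. Slc1a5 and Slc3a2 lead in both genotypes and Slc43a3 moves from 10.60 to 9.14.

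As a share of the summed level per kilobase of these members without Slc7a6os, Slc43a3 made up 13.2%, 14.0% and 12.9% of the total in wild-type libraries against 4.75%, 5.17% and 6.10% in knockout libraries. Slc3a2 made up 19.8%, 19.2% and 19.8% of the total in wild-type libraries against 24.6%, 23.9% and 23.8% in knockout libraries. Slc1a5 made up 32.8%, 33.7% and 35.1% and then 37.0%, 36.9% and 38.03%. These shares sum to a fixed total, so a lower share of Slc43a3 raises the others, and they were not tested. The SLC38 genes together took 17.8% ± 0.53 in the wild type against 17.2% ± 0.34 in the knockout (SD, n = 3), and the light chains 6.28% ± 0.11 and 6.47% ± 0.49.

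**Figure D4:**
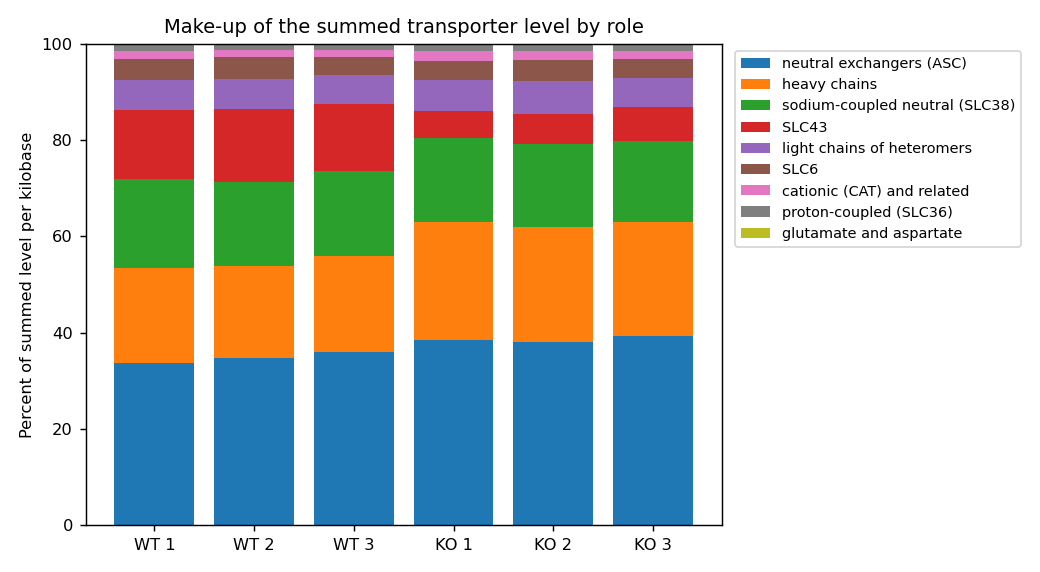
Percent of the summed level per kilobase taken by each role, per library (WT, wild type; KO, knockout), over 28 carriers with a mean of at least 5. The SLC43 segment is narrower in all 3 knockout libraries, and the exchanger and heavy chain segments are wider.

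Other genes of amino acid handling were counted in 5 lists, and the rates are to be read against the same background of 33.0%. Opposite-strand exons overlap those of Ddit3, Ppp1r15a, Nprl3, Arg2, Bcat2, Slc15a3, Atf5 and Glul, with the same limit as for Slc43a2. Carriers of amino acids and peptides from other families were called in 5 of 12 tested cases (41.7%), all lower; without knockout library 3 there was 1 called higher. Slc15a3, a lysosomal histidine and peptide carrier, fell by 1.09 (limma adjusted p = 0.000117), the peptide carrier Slc15a2 by 0.55 (0.000424), Slc16a10, a uniporter of aromatic amino acids, by 0.62 (0.000433), and the lysosomal cystine exporter Ctns by 0.43 (limma adjusted p = 0.00148). In the authors' deposited table the low genes Slc15a2 and Slc15a3 have log2 fold changes of -5.19 and -2.99. Of 17 genes for the use of glutamine, branched-chain amino acids, arginine and tryptophan 5 were called (29.4%), all lower. Arg2, the mitochondrial arginase, fell by 1.07 and Bckdha, a subunit of the branched-chain ketoacid dehydrogenase, by 0.84 (limma adjusted p = 0.000167 and 0.000109). Bcat2, the mitochondrial branched-chain aminotransferase, fell by 0.33. Dld, the dihydrolipoamide dehydrogenase shared by several complexes, fell by 0.24 (limma adjusted p = 0.0343), a call that ended without wild-type library 2 or 3 or any knockout library (0.0523 to 0.110), in limma without trend (0.0570), after quantile normalization (0.100, with a fall of 0.15) and after intensity-dependent centring (0.0799). That count was 3 without wild-type library 2 or without any of the knockout libraries.

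Genes of amino acid synthesis were called in 6 of 19 tested cases (31.6%), 2 higher and 4 lower. Glul, glutamine synthetase, rose by 0.86 (8.21 ± 0.11 to 9.08 ± 0.02, SD, n = 3; limma adjusted p = 5.06e-05), and Ass1, argininosuccinate synthetase, fell by 0.95 (limma adjusted p = 2.81e-05). In the serine pathway Phgdh, which catalyses the entry step, fell by 0.60 (limma adjusted p = 0.00617) while Psat1, the next enzyme, rose by 0.30 (limma adjusted p = 0.00190). The number higher was 5 after quantile normalization and without wild-type library 3.

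Of 18 genes listed for the response to amino acid shortage 4 rose and 6 fell (55.6% called), with a median difference of -0.01. Differences ran from -1.80 to 0.72. The list also holds the related kinases Eif2ak1, Eif2ak2 and Eif2ak3. In the authors' deposited table its largest fall is that of Cebpb, with a log2 fold change of -3.90 (adjusted p = 0.000436). Ddit3 and Trib3, targets of ATF4, rose by 0.72 and 0.55, while Atf5 and Chac1, also targets of ATF4, fell by 0.49 and 0.37 (limma adjusted p = 0.00228 and 0.00842). Eif2ak4 (GCN2), the kinase that senses uncharged tRNA, fell by 0.60 (limma adjusted p for Ddit3, Trib3 and Eif2ak4 between 0.000660 and 0.00110). Ppp1r15a, the phosphatase subunit that ends the response, fell by 0.42 (limma adjusted p = 0.00123). The transcript of Atf4 itself, looked up after its value was known, was not called at -0.03 (limma adjusted p = 0.729; 0.06 after quantile normalization and 0.02 after intensity-dependent centring). Of 36 genes of amino acid sensing by mTORC1 5 rose and 2 fell (19.4% called). Nprl3, a subunit of the inhibitory GATOR1 complex, rose by 0.40, Gatsl2 (CASTOR2) by 0.29, and the GTPases Rragd and Rragb by 0.25 and 0.14 (limma adjusted p between 0.00173 and 0.0170). The Rragb call ended without wild-type library 2 (limma adjusted p = 0.0541) or knockout library 2 (0.0548) and in the authors' deposited table (0.0578). The number lower ranged from 0 to 4 without single libraries, being 4 with wild-type library 1 left out, 1 with wild-type library 3 or knockout library 2 left out, and 0 with wild-type library 2 or knockout library 1 left out, and it was 1 without the low-value filter and 0 after quantile normalization and after intensity-dependent centring. The number higher was 3 among genes with a mean of at least 5.

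**Figure D5:**
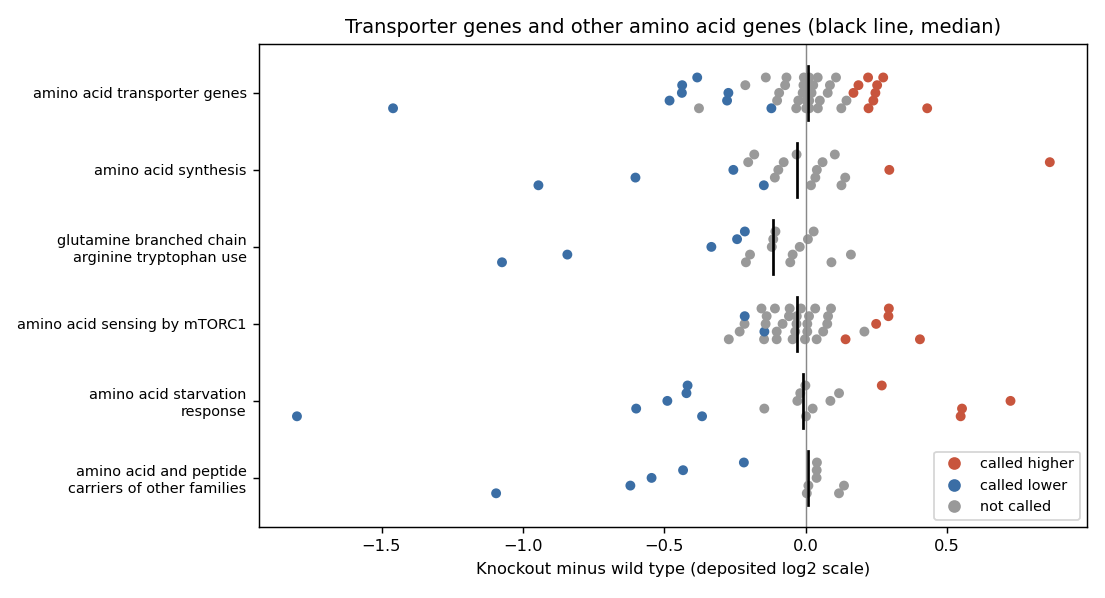
Difference of each tested gene (knockout minus wild type, deposited log2 scale) for the members and the 5 other lists of amino acid genes; colours give the call and the black line the median. Called genes lie on either side of 0 for the members, the synthesis, sensing and shortage lists, and below 0 for the other 2.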

How the data were processed

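Per the labels, 6 mouse RNA-seq libraries were made from poly(A) RNA, 3 from wild-type and 3 from Prmt6-/- leukaemia cells. Trim Galore, kallisto and HOMER are named without versions, with the build GRCm38, per the submitters' processing notes. Per the file headers, the authors used HOMER's differential expression command on a count table. The expression values were deposited by the authors as log2 values normalized between libraries. The transformation is not named, and genes of low level are pulled together, so their differences are understated. The authors' deposited log2 fold change, p-value and adjusted p-value come from an unnamed test. No counts are given, so depth and counting error are unknown. Of 30038 rows 1 names no gene and was left out.

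Deposited log2 values were tested directly, with no pseudocount, by limma 3.58.1 in R 4.3.3 with an intensity trend, on genes with at least 1 in at least 3 libraries. Calls used a Benjamini-Hochberg adjusted p under 0.05 over all 15454 tested genes, and intervals are 95%. On simulated data of 15454 genes the test recovered 44% of 50 planted differences of 0.25, 74% of those of 0.5, and 100% of those of 1 and of 2, and called 7 of 15254 unchanged genes. In the data 33.0% of tested genes were called, a far larger share than was planted. The adjusted p depends on that share, so these rates need not hold for the data. Slc7a5, Slc3a2 and Slc1a5 also had exact permutation tests.

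The members and lists were chosen with earlier results of these data known. Named were Slc7a5, Slc3a2 and Slc1a5, every called member, members not called whose mean reached the median, and the 4 genes with the smallest p among those called in each other list. Values in every library are given for the former 3 and the 10 called members of largest absolute difference. Slc1a4, Slc7a7, Slc43a1, Slc6a4, Slc6a9, Atf4, Atf5, Chac1, Cebpb and the markers were shown further after their values were seen. Levels per kilobase used the longest GENCODE vM21 transcript, in which all 63 members were placed. Promoter windows came from RefSeq (GRCm38.p6). The alternatives were no low-value filter, a mean of at least 5, limma without trend, quantile normalization, intensity-dependent centring (loess span 0.5), a replicate block, the authors' deposited table, and leaving out each library.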

Additional observations from a re-analysis of the deposited data

How the results depend on the processing

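Of the 17 members called, Slc43a2, Slc43a3, Slc36a2, Slc38a10 and Slc6a13 were called under all 13 alternatives, and the other 12 lost the call without at least 1 library. Against 9 higher and 8 lower, leaving out single libraries gave 2 to 5 higher and 5 to 8 lower; the other alternatives gave 6 to 8 of each. These fits have fewer samples. Over all genes, leaving out single libraries gave 1696 to 2028 higher and 2192 to 2584 lower. After quantile normalization 54.3% of the called genes were higher, against 45.6% in the main fit, so the background split by direction depended on normalization. Among the genes named, changes of sign under these alternatives were seen only in genes that were not called. Without single libraries the difference ran from -0.0322 to 0.0694 for Slc1a5, below 0 without wild-type library 1 or 2 or knockout library 3, from -0.0701 to 0.201 for Slc7a5, from -0.116 to 0.0286 for Slc7a8 and from -0.0736 to 0.000677 for Atf4. After quantile normalization Slc7a6 stood at 0.00144, Slc7a8 at 0.0520, Slc38a2 at 0.0306 and Atf4 at 0.0620, and after intensity-dependent centring Atf4 stood at 0.0230; the cause was not tested. Same-numbered libraries deviated together with correlations of 0.0948, 0.0727 and 0.172, so the numbers were not taken as pairs, although each wild-type library correlated best with the knockout library of its own number. With the replicate block 8 members were higher and 8 lower, Slc1a4 and Slc36a3 were not called and Slc6a9 was, and 4 genes of the mTORC1 list were lower. With 3 libraries a group, differences near 0.25 were often missed in simulated data, in which a far smaller share of genes changed than was called here. With no counts, small differences of low genes cannot be resolved.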
